A study of Mus musculus with 816 samples.

Results

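Palmitic acid (PA) and linoleic acid (LiA) were each given alone to cultured primary mouse microglia at 150 uM for 24 h, and their effects on the transcriptome are described here. These are 15 of the 816 samples in the series, chosen by their treatment and duration labels as 6 PA and 9 LiA cultures. They were compared with the 40 cultures labelled None at 24 h, which received no stimulus, and with each other at matched dose and time. The series profiled microglia in vitro under a large stimulus panel, with further samples from mice, by 3′-end RNA sequencing. The cells were commercial neonatal mouse microglia plated in coated wells, and the medium was replaced after 4 days by fresh medium with or without the stimulus. Each sample was 1 well of a culture plate, so replicates shared cell lots, plates and library pools, and p-values measure the spread between wells, which may be technical. The carrier of the fatty acids is not given in the sources used here. Oleic acid (OA, 8 cultures, 150 uM, 24 h) was used as the nearest other compound.

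PA is a straight-chain saturated fatty acid, LiA is a longer fatty acid with double bonds separated by a methylene group, and OA is monounsaturated. Long-chain fatty acids enter cells partly through the scavenger receptor CD36, are activated to acyl-CoA, and are then oxidised in mitochondria and peroxisomes or esterified and stored in lipid droplets coated by perilipins. They also bind PPAR nuclear receptors, which drive genes of lipid storage and oxidation, while polyunsaturated fatty acids are known to restrain SREBP-1c, the factor behind fatty acid synthesis. Saturated fatty acids at high supply are known to disturb the endoplasmic reticulum (ER) and to engage the integrated stress response, in which the transcription factor ATF4 acts on amino acid and redox genes.

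The PA and LiA cultures came from 3 culture plates, called plates 1, 2 and 3 here, and on each plate they shared 1 library pool. Values on or within a plate, here and below, use only the wells of that pool. Plate terms and fits that keep or leave out whole plates use every well of the culture plate. Plate 1 held PA cultures 1 to 3 and LiA cultures 1 to 3, plate 2 held PA cultures 4 and 5 and LiA cultures 4 to 6, and plate 3 held PA culture 6 and LiA cultures 7 to 9. Plates 1 and 2 used 1 cell lot and plate 3 another. Untreated wells from the same pools numbered 3 on plate 1, 3 on plate 2 and 4 on plate 3, which makes 10 of the 40 untreated cultures. The other untreated cultures came from further pools, with 6 plates, 10 pools and 3 lots in all. Among them, untreated cultures 7 to 9 lay in a second pool whose labels carry the culture plate name of plate 1. In the pools of plates 1 and 2 the untreated wells lay at an edge or corner while most PA and LiA wells lay in the middle. Within those pools well position and treatment cannot be told apart. PA cultures 1 and 4 were the exceptions, in wells at the left edge. OA had no culture in the pool of plate 1, but OA cultures 3 to 5 lay in the second pool of that plate name.

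Levels are CPM (the reads of a gene scaled to a common total of mapped reads, not corrected for gene length), and differences are on the scale of log2(CPM + 1). The depth estimated from the smallest steps of the values was 2.56 to 7.36 M reads in PA cultures and 1.60 to 6.97 M in LiA cultures, against 1.09 to 14.99 M in untreated cultures. Depth did not separate the groups, with a permutation p of 0.19 for PA and 0.101 for LiA against untreated cultures and an exact permutation p of 0.94 between PA and LiA. Of the microglial markers, Csf1r, the receptor for CSF1, was present in every group, with medians of 2148 CPM in PA, 2760.5 CPM in LiA and 3927 CPM in untreated cultures. The markers P2ry12 (median 2.41 CPM in PA, 5.17 in LiA, 3.49 in untreated), Tmem119 (5.72, 5.62 and 14.6 CPM) and Siglech (0 CPM in each group) were low or absent in these cultures.

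Promoter sequences are shown first for genes that return below, as the 250 bases before each start site, from RefSeq on GRCm38.p6 and written on the strand of the gene. Plin2, which coats lipid droplets, was higher under both fatty acids and is the gene the lipid results turn on. Chac1, Atf3 and Asns are known targets of ATF4 and are shown because, of 9 stress genes below, they were the 3 whose windows held the searched letters. Capitals mark the letters TGATGNAA, a core shared by C/EBP-ATF response elements, searched on both strands.

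Plin2, chr4:86670060-86670309, minus strand: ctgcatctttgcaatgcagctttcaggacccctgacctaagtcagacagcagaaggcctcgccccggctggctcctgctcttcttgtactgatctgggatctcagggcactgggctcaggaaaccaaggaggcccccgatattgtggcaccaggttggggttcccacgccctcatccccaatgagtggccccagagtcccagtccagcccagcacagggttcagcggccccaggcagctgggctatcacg
Chac1, chr2:119350992-119351241, plus strand: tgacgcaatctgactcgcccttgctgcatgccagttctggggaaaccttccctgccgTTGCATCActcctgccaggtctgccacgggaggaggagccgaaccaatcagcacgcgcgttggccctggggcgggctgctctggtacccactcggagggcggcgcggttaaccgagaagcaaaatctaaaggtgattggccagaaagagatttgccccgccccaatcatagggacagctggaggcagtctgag
Atf3, chr1:191183334-191183583, minus strand: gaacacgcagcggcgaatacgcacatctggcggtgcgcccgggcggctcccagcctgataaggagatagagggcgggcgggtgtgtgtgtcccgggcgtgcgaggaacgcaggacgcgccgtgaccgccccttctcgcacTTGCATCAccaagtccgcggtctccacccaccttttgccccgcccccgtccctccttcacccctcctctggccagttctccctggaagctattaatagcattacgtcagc
Asns, chr6:7693210-7693459, minus strand: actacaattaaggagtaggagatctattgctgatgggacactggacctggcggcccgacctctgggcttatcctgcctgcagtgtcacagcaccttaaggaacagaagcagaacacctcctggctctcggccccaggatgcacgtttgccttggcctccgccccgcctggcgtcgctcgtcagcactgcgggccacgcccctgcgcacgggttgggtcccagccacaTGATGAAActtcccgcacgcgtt

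The 8 letters TGATGNAA matched at position -193 in Chac1, -110 in Atf3 and -23 in Asns, counted from the start site, and had no match in the Plin2 window or in those of Atf4, Ddit3, Trib3, Ppp1r15a, Hspa5 and Sqstm1. The same letters occurred in 3.45% of the 32851 RefSeq promoters of this length. The PPAR-type direct repeat DR1, AGGTCA written 2 times with any single base between the copies and also searched on both strands, occurred in 0.0335% of them and in none of these 4 windows. A match is a description of the letters and not evidence of a site. Among genes higher in PA cultures by the test below, 1 of the 38 with a promoter in the table held TGATGNAA (2.63%), beside 252 of 9633 genes tested (2.62%).

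The lipid genes Plin2, Angptl4 and Aldh9a1 were higher under both fatty acids and Cd36 with LiA, and 2 genes of the stress response, Atf4 and Ppp1r15a, were higher with PA, with their largest differences on 1 plate. Among 14208 genes tested with limma (Benjamini-Hochberg over the 3 comparisons PA with untreated, LiA with untreated and PA with LiA, adjusted p under 0.05), 84 genes (0.591%) changed with PA, of which 53 were higher (0.373%) and 31 lower (0.218%). With LiA 44 genes changed (0.31%), 10 higher (0.0704%) and 34 lower (0.239%). With a plate term, a pool term or only the untreated wells of the same plates, 6, 4 and 3 of the 10 higher genes were still called but 0 of the 34 lower ones, while a lot term kept 24 of the 34. Between the fatty acids 10 genes differed (0.0704%), each of them higher in PA. The median difference of all genes tested was 0.11 for PA and 0.04 for LiA against untreated cultures and 0.08 for PA against LiA. The comparisons share the untreated cultures or the treated ones and are not independent of each other.

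Plin2 encodes perilipin 2, the main lipid droplet coat protein of cells that are not adipocytes. On plate 1 it reached 4996, 3759 and 3634 CPM in the PA cultures, and it measured 2348 and 2335 CPM in the PA cultures of plate 2 and 2228 CPM in that of plate 3. In LiA cultures it measured 3127, 2638 and 2257 CPM on plate 1, 2558, 2288 and 2963 CPM on plate 2, and 2037, 2313 and 2185 CPM on plate 3. Untreated cultures of the same pools lay between 833 and 1501 CPM, and all 40 untreated cultures between 664 and 2439.9 CPM with a median of 1341 CPM. Every PA and LiA culture thus lay above every untreated culture of its own pools, while the highest of the other untreated cultures overlapped both groups. The mean level was 3217 ± 1108 CPM in PA (SD, n = 6), 2485 ± 368 CPM in LiA (n = 9), 1440.5 ± 451 CPM in untreated cultures (n = 40) and 2329 ± 636 CPM in OA (n = 8). The log2 difference from untreated cultures was 1.16 (SE 0.16, limma adjusted p = 1.16e-07) for PA and 0.84 (SE 0.13, adjusted p = 1.53e-05) for LiA.

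Within plates 1, 2 and 3 the Plin2 difference from untreated wells was 1.86, 0.70 and 1.00 for PA and 1.24, 0.84 and 0.96 for LiA. An exact permutation test that exchanged labels only within plates gave p = 0.001 for PA and p = 7.14e-05 for LiA, in each case the smallest its arrangements allow. These within-plate exact p-values, here and below, are 2-sided and unadjusted, and serve as a description for genes already named. PA exceeded LiA by 0.32 over all cultures, with a 95% interval of -0.06 to 0.69 (adjusted p = 0.65), so the direct comparison did not separate the fatty acids on Plin2.

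**Figure D1:**
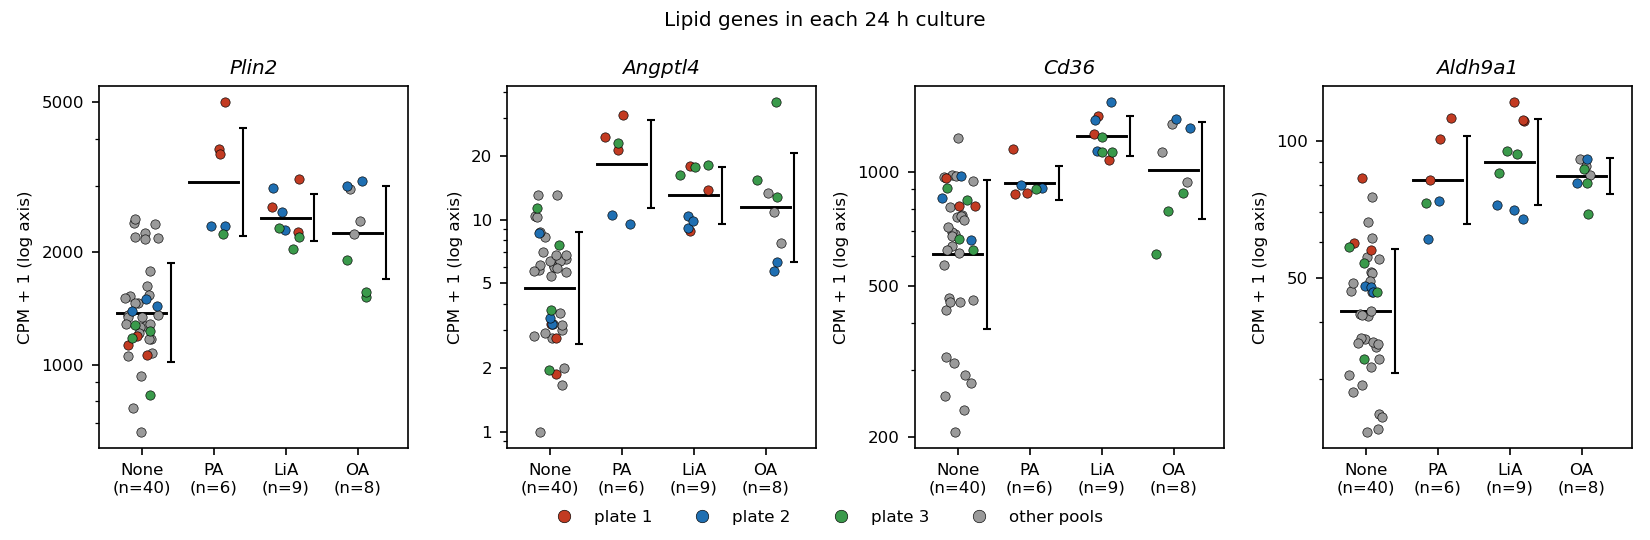
CPM + 1 on a log axis in each culture for Plin2, Angptl4, Cd36 and Aldh9a1, with untreated (None), PA, LiA and OA cultures coloured by culture plate, a line at the mean and a bar of 1 SD to either side on the log scale. For Plin2 the PA cultures of plate 1 (3634 to 4996 CPM) stand above all others, and for Cd36 the LiA cultures (1073 to 1526 CPM) stand above most PA cultures (874 to 1148 CPM).

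Angptl4 encodes a secreted inhibitor of lipoprotein lipase and is a well-known PPAR target. It measured 20.2, 23.5 and 30.1 CPM in the PA cultures of plate 1, 9.54 and 8.56 CPM on plate 2 and 21.9 CPM on plate 3. LiA cultures held 7.81 to 17.2 CPM with a mean of 12.5 ± 4.02 CPM (SD, n = 9), and untreated cultures 0 to 12.1 CPM with a median of 4.77 CPM. The PA and LiA ranges overlapped each other and the upper end of the untreated range. Its log2 difference was 1.94 with PA (SE 0.39, limma adjusted p = 0.00291) and 1.45 with LiA (SE 0.33, adjusted p = 0.0156). On plates 1, 2 and 3 the difference was 3.31, 1.13 and 2.19 for PA and 2.34, 1.10 and 1.79 for LiA, so it kept its sign on each plate. PA and LiA differed by 0.49 with an interval of -0.43 to 1.42 (adjusted p = 0.82).

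Cd36, the scavenger receptor that takes up long-chain fatty acids and oxidised lipoproteins, was higher with LiA. It measured 1404, 1260.3 and 1073 CPM in the LiA cultures of plate 1, 1368, 1134 and 1526 CPM on plate 2 and 1129, 1129 and 1239 CPM on plate 3. PA cultures measured 1148, 874 and 877 CPM on plate 1, 904 and 922 CPM on plate 2 and 903 CPM on plate 3, and untreated cultures of the same pools 620.0 to 978 CPM. All LiA cultures were thus above every untreated culture of these pools, whereas the PA range overlapped the untreated one. The log2 difference from the 40 untreated cultures, whose median was 680.3 CPM, was 1.04 for LiA (SE 0.20, limma adjusted p = 0.00187) and 0.62 for PA (adjusted p = 0.319). Within plates it was 0.52, 0.70 and 0.64 for LiA (exact permutation p = 0.000143) and 0.15, 0.15 and 0.27 for PA (exact permutation p = 0.133). The direct difference, PA minus LiA, was -0.41 with an interval of -0.98 to 0.15 (limma adjusted p = 0.72), and -0.37, -0.55 and -0.37 on the 3 plates (exact permutation p = 0.00375, unadjusted). The LiA mean was thus higher on each plate, although on plate 1 PA culture 1 (1148 CPM) lay above LiA culture 3 (1073 CPM). The test across all genes did not call the difference.

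Aldh9a1 encodes an aldehyde dehydrogenase that oxidises 4-trimethylaminobutyraldehyde, a step of carnitine synthesis. It measured 100.0, 81.3 and 111 CPM with PA on plate 1, 60.1 and 72.8 CPM on plate 2 and 72.3 CPM on plate 3, and 66.5 to 121 CPM with LiA. Untreated cultures ranged from 22.0 to 81.9 CPM with a median of 43.4 CPM, so both ranges overlapped the upper end of the untreated one. The log2 difference was 1.09 for LiA (SE 0.20, limma adjusted p = 0.000756) and 0.96 for PA (SE 0.24, adjusted p = 0.0348), and PA minus LiA was -0.13 with an interval of -0.70 to 0.43 (adjusted p = 0.944). Without the 3 PA cultures of plate 1 the Plin2, Angptl4 and Aldh9a1 differences for PA were 0.74, 1.47 and 0.71, with limma adjusted p of 0.24, 0.47 and 0.74.

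OA cultures held 1512 to 3077 CPM of Plin2 and 68.2 to 90.3 CPM of Aldh9a1. Against untreated cultures 7 genes changed with OA (0.0493%), among them Plin2 (log2 difference 0.71, limma adjusted p = 0.0117) and Aldh9a1 (0.99, adjusted p = 0.0259). The comparison of LiA with OA called no gene (0%) with limma, although 329 of the genes tested had p under 0.05 before adjustment. In Plin2, LiA minus OA was 0.13 with an interval of -0.22 to 0.48 (adjusted p = 0.973). These OA comparisons form a second family of 3, adjusted together, and a p above the threshold does not show that compounds act alike.

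Other genes of lipid handling showed smaller or less even differences. Beside the list counts here and below, the share called over all genes tested was 0.591% with PA, 0.31% with LiA and 0.0704% between them. The lipid droplet list had 1 of 15 tested members higher under each fatty acid, which was Plin2 in each case, with a median log2 difference of 0.20 for PA and 0.00 for LiA, beside all-gene medians of 0.11 and 0.04. Hilpda encodes an inhibitor of the lipase ATGL on lipid droplets and was named after its values were seen. It measured 479.9, 402 and 409.9 CPM with PA on plate 1 but 101 and 102 CPM on plate 2 and 7.04 CPM on plate 3. In untreated cultures it ran from 87.3 to 99.6 CPM on plate 1 and from 3.22 to 7.93 CPM on plate 3, so its level followed the plate in untreated wells as well. The log2 difference was 2.48 with PA (SE 0.65, limma adjusted p = 0.0505) and 1.20 with LiA (adjusted p = 0.474).

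The list of fatty acid uptake and activation held 21 tested members. Angptl4 was called with PA, Cd36 and Angptl4 with LiA, and the list medians were 0.44 and 0.14. Fabp4, a fatty acid binding protein of macrophages and adipocytes, measured 5.47 to 34.6 CPM in PA and 9.34 to 45.4 CPM in LiA against a median of 13.1 CPM in untreated cultures, and was not called (log2 difference 1.09 with LiA, adjusted p = 0.231). Lpl, the secreted lipoprotein lipase that Angptl4 inhibits, measured 1557 to 4553 CPM in PA and 2120.0 to 6284 CPM in LiA against an untreated median of 2015 CPM and was not called.

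For fatty acid oxidation, none of 25 tested members passed the limma threshold with either fatty acid, and the list median was 0.13 with PA and 0.17 with LiA. Cpt1a, the carnitine palmitoyltransferase that admits acyl groups to mitochondria, measured 139, 106 and 146 CPM with PA on plate 1 and 60.2 to 69.9 CPM on the other plates. Its log2 difference was 0.76 with PA (limma adjusted p = 0.183) and 0.65 with LiA (adjusted p = 0.173). Ucp2, a mitochondrial carrier induced by fatty acids in many cells, measured 791, 823 and 839 CPM with LiA on plate 1, where untreated wells measured 400.1, 581 and 447 CPM. Plates 2 and 3 gave 371 to 416 CPM and 204 to 241 CPM with LiA, against 272 to 313 CPM and 161 to 198 CPM untreated. LiA wells were thus above the untreated wells of their pool on each plate, by 0.80, 0.40 and 0.34 on the log2 scale (exact permutation p = 0.000143). The limma test over all cultures gave 0.59 with an adjusted p of 0.395.

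Of 17 tested genes of fatty acid synthesis and desaturation 1 was called, Srebf1, lower with LiA. Srebf1 encodes SREBP-1. With LiA it measured 16.3, 16.1 and 11.99 CPM on plate 1, 9.98, 6.52 and 12.2 CPM on plate 2 and 1.33, 2.83 and 0 CPM on plate 3, and with PA 22.96, 19.5 and 21.6 CPM, then 18.9 and 12.4 CPM, then 4.72 CPM. The level followed the plate in both groups, and on each plate the PA mean lay above the LiA mean. The log2 difference from untreated cultures was -1.14 with LiA (SE 0.23, limma adjusted p = 0.00363) and 0.07 with PA (adjusted p = 0.974). The difference PA minus LiA, 1.21 with an interval of 0.55 to 1.86, missed the threshold (adjusted p = 0.0744). Within plates the LiA difference was -0.24, -0.45 and -1.65 (exact permutation p = 0.0256). The Srebf1 call with LiA was lost with a plate term (-0.78, limma adjusted p = 0.13), with a pool term (-0.77, adjusted p = 0.0509) and with only the untreated wells of the same plates (-0.70, adjusted p = 0.777).

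None of the 25 tested genes of sterol synthesis was called in either limma comparison with untreated cultures or between the fatty acids. Their median difference, PA minus LiA, was -0.40, and it was -0.27, -0.41 and -0.94 on plates 1, 2 and 3, beside a median over all genes of 0.08. Of 16 genes of LXR action and cholesterol efflux only Abcg1 passed, with PA. Abcg1 exports cholesterol to high-density lipoprotein. It measured 134, 203 and 157 CPM with PA on plate 1, where untreated wells held 21.1 to 32.4 CPM, and 48.0 to 57.9 CPM with PA on plates 2 and 3, where untreated wells held 31.3 to 90.9 CPM. The log2 difference was 1.47 over all cultures (SE 0.27, limma adjusted p = 0.000445) and 2.64, 0.12 and 0.24 on the 3 plates, a contrast of plate 1 with the other plates of 2.45 (adjusted p = 0.0018).

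Igfbp5, which encodes a binding protein of insulin-like growth factors, was lower with both fatty acids on every plate and was called only with LiA. It measured 2.94 to 19.3 CPM in LiA, 8.88 to 17.5 CPM in PA and 14.1 to 31.8 CPM in the untreated cultures of the same pools. The log2 difference from all untreated cultures was -1.15 with LiA (SE 0.28, limma adjusted p = 0.0327), and -0.87, -1.18 and -1.45 on plates 1, 2 and 3 (exact permutation p = 0.000143). With PA it was -0.74 over all cultures (limma adjusted p = 0.467), and -1.02, -0.61 and -0.44 on plates 1, 2 and 3.

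Other genes lower with LiA differed in size between plates. On plate 3 the difference was -2.12 for Gcnt2, -1.83 for Dgcr14, -1.82 for Gramd1a and -1.78 for Fuz, while on plates 1 and 2 these genes lay between -1.02 and 0.15. Rnf185, an ER-associated ubiquitin ligase, measured 37.4, 43.6 and 46.2 CPM with LiA on plate 1, 25.3, 27.4 and 17.96 CPM on plate 2 and 3.87, 11.7 and 6.87 CPM on plate 3, against 9.15 to 118 CPM in untreated cultures. Its log2 difference was -1.11 (limma adjusted p = 0.0215), and -0.33, -0.78 and -1.23 within plates (exact permutation p = 0.00143). Fzr1, an activator of the anaphase-promoting complex, had a difference of -1.16 over all cultures (adjusted p = 0.0302) but 0.00, 0.25 and -0.76 within plates. Untreated wells of the same pools held 21.8 to 82.5 CPM of it and those of other pools up to 218 CPM. Itgal, the integrin alpha chain of LFA-1, named after its values were seen, measured 132 to 182 CPM with LiA and 92.8 to 199 CPM with PA against an untreated median of 273 CPM. The difference for Itgal was -0.69 with LiA (adjusted p = 0.00363) and -0.79 with PA (adjusted p = 0.00778), and within plates -0.38, -0.23 and -0.41 with LiA but -0.90, 0.19 and -0.14 with PA.

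**Figure D2:**
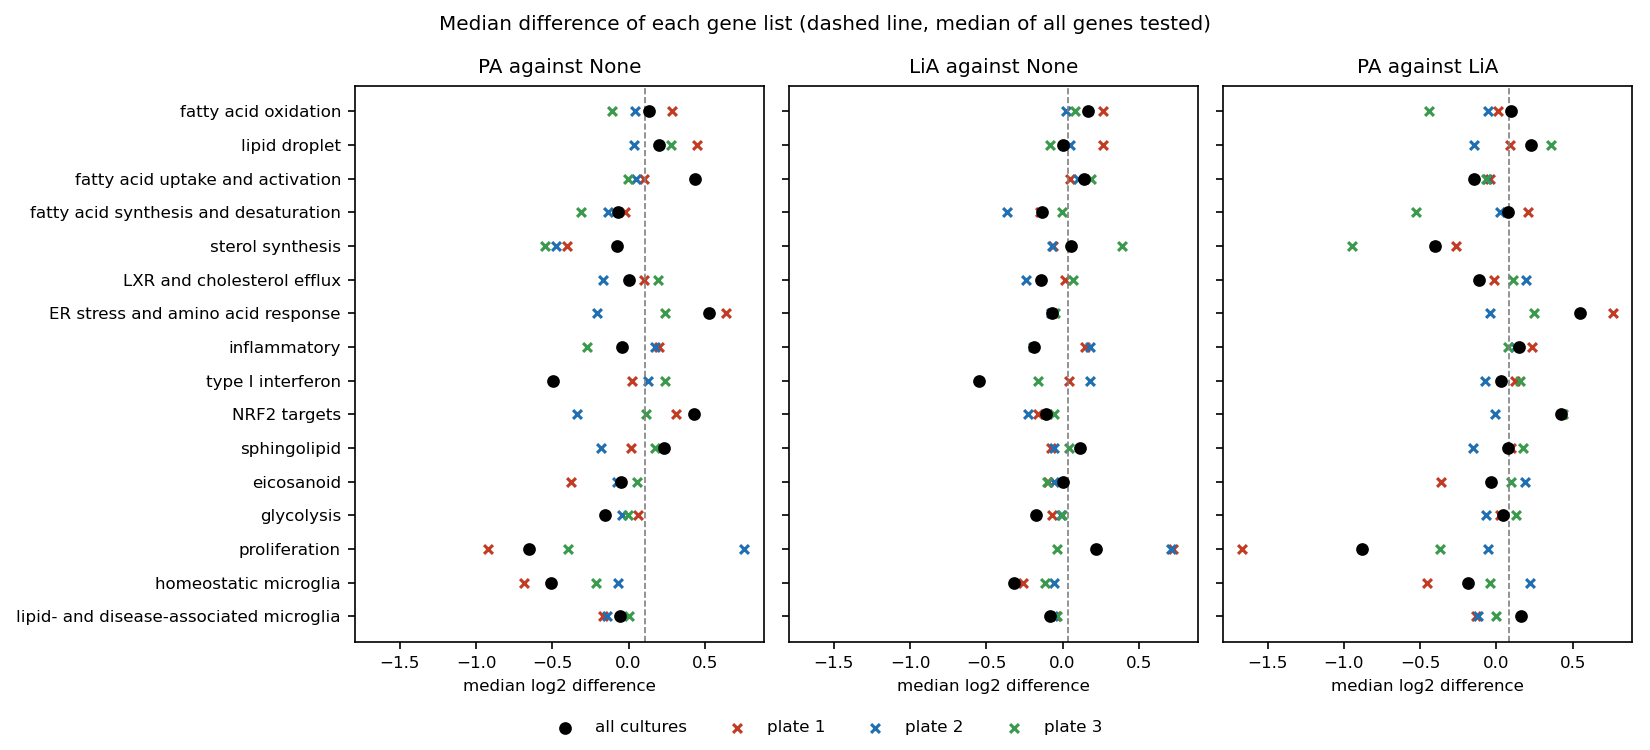
Median log2 difference of 16 gene lists for PA against None, LiA against None and PA against LiA, over all cultures and within plates 1, 2 and 3, with a dashed line at the median over all genes tested. Most lists lie near that line, and the ER stress list with PA is at 0.53 over all cultures but at 0.64, -0.21 and 0.24 within the plates.

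The genes that changed with PA moved mostly on plate 1. The 53 genes higher in PA had a median within-plate difference of 1.20 on plate 1, 0.21 on plate 2 and 0.49 on plate 3, with 53, 39 and 38 of them in the same direction. The 31 lower genes had medians of -0.78, -0.22 and -0.32, with 30, 23 and 27 in the same direction. For LiA the 10 higher genes had medians of 0.68, 0.77 and 1.54 with all 10 in the same direction on each plate, and the 34 lower genes had medians of -0.21, -0.46 and -0.58 with 26, 32 and 32 in the same direction. The plates' cultures are among those that made the calls, so these counts describe the calls and do not test them.

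**Figure D3:**
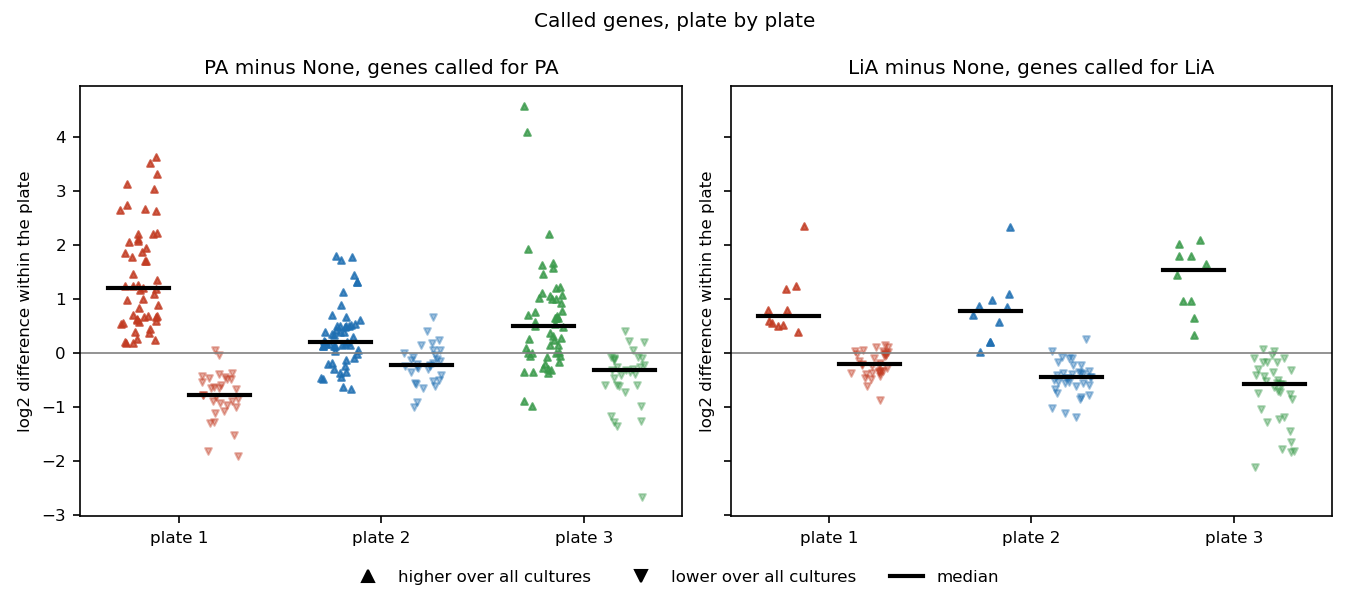
Log2 difference within plates 1, 2 and 3 of each gene that changed with PA or with LiA, as upward triangles for genes higher over all cultures, downward triangles for genes lower, and a black bar at the median. The median of the genes higher with PA is 1.20 on plate 1 and 0.21 on plate 2, whereas that of the genes higher with LiA is 0.68 on plate 1 and 0.77 on plate 2.

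Tests within plate 1 called 89 genes with PA (0.626%), 6 with LiA (0.0422%) and 92 between PA and LiA (0.648%). Within plate 2 the counts were 3 (0.0211%), 4 (0.0282%) and 0 (0%). Within plate 3 they were 183 (1.29%), 116 (0.816%) and 178 (1.25%), more than on plate 1 in each comparison, where the 1 PA culture was assumed to vary like the other cultures. Of the genes called over all cultures, plate 1 called 26, 1 and 8, plate 2 called 0, 1 and 0, and plate 3 called 4, 7 and 0. The 6 LiA genes of plate 1 were Ucp2, Plin2 and Rps12l1 (higher) and Bcap29, Tceb1 and mt-Nd1 (lower), and are named after their values were seen. The PA difference on plate 1 was itself tested against that on plates 2 and 3, and it differed for 28 genes (0.197%) in the comparison with untreated wells and for 21 genes (0.148%) in the comparison with LiA. With the 3 PA cultures of plate 1 left out, 6 of 14207 genes (0.0422%) were called for PA and 2 (0.0141%) between PA and LiA. The 6 were Gm10248, Cdh13, Gm10720, Gnmt, 5330439K02Rik and Hist1h2ae, none of them among the 84. That setting was chosen after the data were seen.

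Atf4, the transcription factor at the centre of the integrated stress response, was higher in the PA cultures of plate 1 than in all others. It measured 599.7, 484 and 641 CPM in the PA cultures of plate 1, 141 and 146 CPM on plate 2 and 121 CPM on plate 3. LiA cultures held 169.7, 172 and 115 CPM on plate 1 and 72.1 to 120.4 CPM on the other plates, and untreated cultures 59.9 to 295 CPM with a median of 139 CPM. PA on plate 1 was above every other culture of these groups, and PA on plate 2 was below its untreated wells, which held 172 to 273 CPM. The log2 difference was 1.02 with PA (SE 0.25, limma adjusted p = 0.0337) and -0.27 with LiA (adjusted p = 0.767), and PA minus LiA was 1.29 with an interval of 0.69 to 1.89 (adjusted p = 0.025). On plates 1, 2 and 3 PA minus LiA was 1.92, 0.41 and 0.43, and without the PA cultures of plate 1 it was 0.26 (adjusted p = 1).

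Ppp1r15a, known as GADD34, directs the phosphatase that reverses eIF2 alpha phosphorylation in this response. It measured 330.4, 273 and 291 CPM with PA on plate 1 and 7.43 to 25.8 CPM with PA on the other plates, against 67.7 to 72.7 CPM in untreated wells of plate 1. Over all cultures its log2 difference with PA was 1.89 (limma adjusted p = 0.0466). Together with Atf4 it made 2 of 28 tested genes of ER stress and the amino acid response that rose with PA (7.14%, beside 0.591% of all genes tested). On plate 2 both genes were below untreated wells, by -0.49 for Atf4 and -0.44 for Ppp1r15a, and without the PA cultures of plate 1 no member of the list was called by limma. The list median with PA was 0.53 over all cultures and 0.64, -0.21 and 0.24 on plates 1, 2 and 3. With LiA no member of the list was called by limma, and its median was -0.07.

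Trib3, a pseudokinase induced by ATF4, measured 38.3, 33.3 and 48.9 CPM with PA on plate 1 and 1.17 to 3.50 CPM on plates 2 and 3. Its PA minus LiA difference was 2.10 with an interval of 0.97 to 3.24 (limma adjusted p = 0.071) and was called within plate 1, where it was 3.02 (adjusted p = 0.0074). Chac1, a glutathione-degrading enzyme named after its values were seen, measured 60.9, 50.3 and 74.3 CPM with PA on plate 1 and 3.87 to 6.24 CPM with LiA there. On plates 2 and 3 it measured 4.13 to 13.3 CPM with PA and 0.630 to 5.73 CPM with LiA, so PA was above the LiA mean on each plate, with differences of 3.43, 0.63 and 2.09. Over all cultures PA minus LiA was 2.40 with an interval of 1.12 to 3.68 (adjusted p = 0.0673).

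Atf3 measured 214, 212 and 231 CPM with PA on plate 1 against 108 to 128 CPM untreated, and 108 to 135 CPM with PA on the other plates, where untreated wells held 117 to 204 CPM. Its log2 difference with PA was 0.68 (limma adjusted p = 0.0806), and the difference on plate 1 exceeded that on the other plates by 1.29 (adjusted p = 0.042). Asns, which encodes asparagine synthetase and was named after its values were seen, measured 22.5 to 32.98 CPM with PA on plate 1 and 5.62 to 10.8 CPM with LiA, with PA minus LiA at 0.91 over all cultures (interval 0.11 to 1.72, adjusted p = 0.457). Of the ER chaperones, Hspa5 measured 722, 539 and 535 CPM with PA on plate 1 and 277 to 330 CPM with LiA, and PA minus LiA was 0.78 (interval 0.13 to 1.43, adjusted p = 0.402). Ddit3, the death-associated factor CHOP, reached 7.88 to 13.6 CPM with PA on plate 1 and was not called (PA minus LiA 0.80, interval -0.08 to 1.67, adjusted p = 0.602).

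Sqstm1 encodes the autophagy adaptor p62, an NRF2 target. PA cultures measured 4051, 3603 and 4334 CPM on plate 1, 606 and 712 CPM on plate 2 and 685 CPM on plate 3. LiA cultures measured 779 to 1009 CPM on plate 1, 638 to 659.5 CPM on plate 2 and 391 to 407 CPM on plate 3, and the untreated range was 351 to 3578 CPM. The PA cultures of plate 1 were thus above all untreated cultures, while PA on plate 2 overlapped LiA. PA minus LiA was 1.41 with an interval of 0.75 to 2.07 (limma adjusted p = 0.025), with 2.17, 0.02 and 0.77 on the 3 plates, and plate 1 differed from the others by 1.78 (adjusted p = 0.00014). Sqstm1 was the only called member of the 18 tested NRF2 targets, and Hmox1, another one, did not separate the fatty acids (PA minus LiA 0.00, interval -0.67 to 0.68).

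Hspa9 encodes the mitochondrial chaperone mortalin. It measured 327, 310.5 and 362 CPM with PA on plate 1 and 87.2 to 96.9 CPM with PA on plates 2 and 3, against 67.2 to 118 CPM in LiA and 51.0 to 177 CPM in untreated cultures. PA minus LiA was 0.87 with an interval of 0.446 to 1.303 (limma adjusted p = 0.0337), and 1.52, -0.01 and 0.15 on plates 1, 2 and 3. Against OA, 5 genes differed from PA (0.0352%), and they were Hspa9 (log2 difference 1.00, adjusted p = 0.0419), Atf4 (1.44, adjusted p = 0.0278), Sqstm1 (1.52, adjusted p = 0.0474), Nr4a3 (1.65, adjusted p = 0.0117) and Tmem178 (2.62, adjusted p = 0.0221), each higher in PA. OA had no culture in the library pool of plate 1, so PA and OA could not be compared within that pool. LiA and untreated wells did lie in it. The LiA wells there held 779 to 1009 CPM of Sqstm1, 115 to 172 CPM of Atf4 and 113 to 118 CPM of Hspa9. The untreated wells there held 982 to 1289 CPM of Sqstm1, 216 to 295 CPM of Atf4 and 129 to 154 CPM of Hspa9. In the second pool of that plate name, OA cultures 3 to 5 held 683 to 716 CPM of Sqstm1, 136 to 184 CPM of Atf4 and 67.7 to 79.1 CPM of Hspa9. The part of the pool in these differences was not tested.

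**Figure D4:**
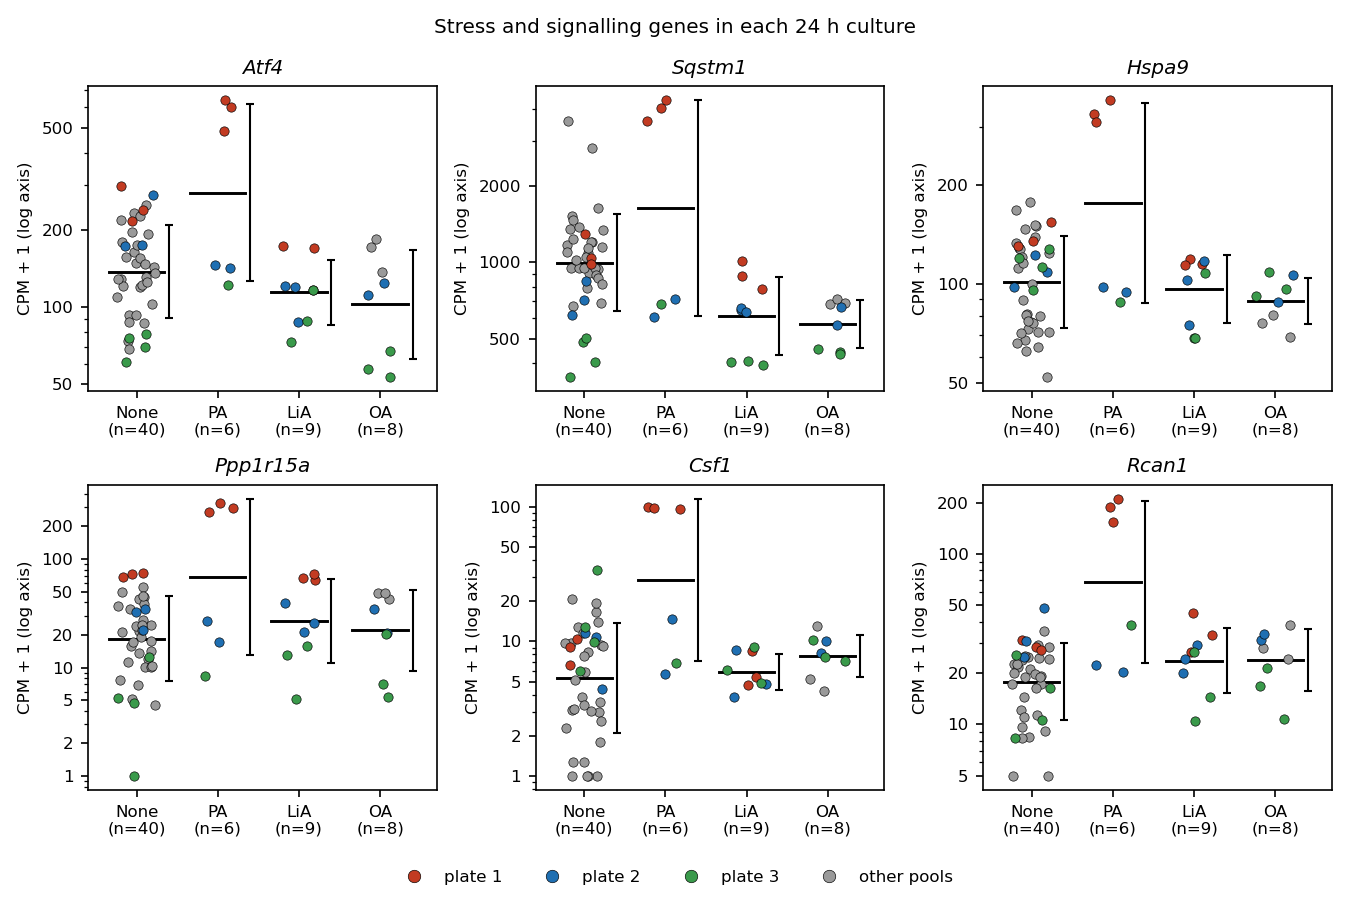
CPM + 1 on a log axis in each culture for Atf4, Sqstm1, Hspa9, Ppp1r15a, Csf1 and Rcan1, with None, PA, LiA and OA cultures coloured by culture plate, a line at the mean and a bar of 1 SD to either side on the log scale. The 3 PA cultures of plate 1 lie above every other PA, LiA and OA culture in each panel (for Sqstm1 3603 to 4334 CPM, against 606 to 712 CPM in the other PA cultures).

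Several signalling genes were higher in PA than in LiA, with their highest levels in the PA cultures of plate 1. Csf1, the growth factor of microglia and macrophages, measured 98.4, 97.3 and 94.998 CPM with PA on plate 1, 4.77 and 13.6 CPM on plate 2 and 5.86 CPM on plate 3, against 2.83 to 8.03 CPM with LiA and an untreated median of 5.32 CPM. PA minus LiA was 2.26 (interval 1.12 to 3.40, limma adjusted p = 0.0416), and 4.02, 0.76 and 0.08 within plates. Rcan1, a calcineurin regulator, measured 153, 187 and 209 CPM with PA on plate 1 and 19.4 to 37.1 CPM with PA elsewhere, against 9.54 to 44.3 CPM with LiA. Its PA minus LiA difference was 1.54 (interval 0.80 to 2.28, adjusted p = 0.0303), and 2.41, -0.18 and 1.26 within plates, so plate 3 shared the direction of plate 1. Nr4a3, an orphan nuclear receptor of the immediate early class, measured 10.9, 14.04 and 9.74 CPM with PA on plate 1 and 0 CPM in the other PA cultures, and LiA cultures did not exceed 0.558 CPM. For Nr4a3 PA minus LiA was 1.70 (interval 1.08 to 2.33, adjusted p = 0.000863). Rgcc, a regulator of the cell cycle, measured 24.4 to 28.8 CPM with PA on plate 1, 0 to 4.67 CPM with PA elsewhere and 0 to 3.46 CPM with LiA (difference 1.90, interval 0.97 to 2.82, adjusted p = 0.0337). Within plates the Rgcc difference was 3.63, 0.20 and -0.54. Rhou, an atypical small GTPase, measured 7.35 to 12.8 CPM with PA on plate 1, 0 to 3.91 CPM with PA elsewhere and 0 to 4.53 CPM with LiA (difference 1.69, interval 0.89 to 2.49, adjusted p = 0.0266). The Rhou difference was 2.79, 0.27 and 1.47 within plates, and plate 1 was not shown to differ from the other plates for Rhou (adjusted p = 0.724) or Rcan1 (adjusted p = 0.304).

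Arrdc4 and Dnajb2 were higher in PA than in LiA in the same direction on every plate, although neither passed the limma test across all genes within any 1 plate. Arrdc4, an arrestin-domain protein related to TXNIP, measured 45.4, 48.3 and 44.1 CPM with PA on plate 1, 51.2 and 47.1 CPM on plate 2 and 24.6 CPM on plate 3. With LiA it measured 31.04, 29.6 and 31.2 CPM, then 22.6, 26.8 and 27.1 CPM, then 4.38, 22.3 and 3.92 CPM. Every PA culture was above every LiA culture of its plate. PA minus LiA was 1.17 with an interval of 0.58 to 1.76 (limma adjusted p = 0.0416), and 0.57, 0.92 and 1.59 within plates (exact permutation p = 0.00125, the smallest possible), and it was 1.06 without the PA cultures of plate 1 (adjusted p = 0.46). The untreated median was 22.7 CPM, with a difference of 0.95 for PA (adjusted p = 0.0503) and -0.23 for LiA (adjusted p = 0.812).

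Dnajb2 encodes a co-chaperone of HSP70. It measured 6.80, 10.8 and 8.71 CPM with PA on plate 1, 3.82 and 3.11 CPM on plate 2 and 9.38 CPM on plate 3, and 0 to 4.65 CPM with LiA, again with no overlap within a plate. The PA minus LiA difference was 1.74 with an interval of 0.87 to 2.60 (limma adjusted p = 0.0374), and 1.84, 0.58 and 2.84 on the plates (exact permutation p = 0.00125). These levels are near the 5 CPM filter, and the group means of untreated and OA cultures were 2.78 ± 2.26 CPM (SD, n = 40) and 1.33 ± 0.861 CPM (n = 8).

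**Figure D5:**
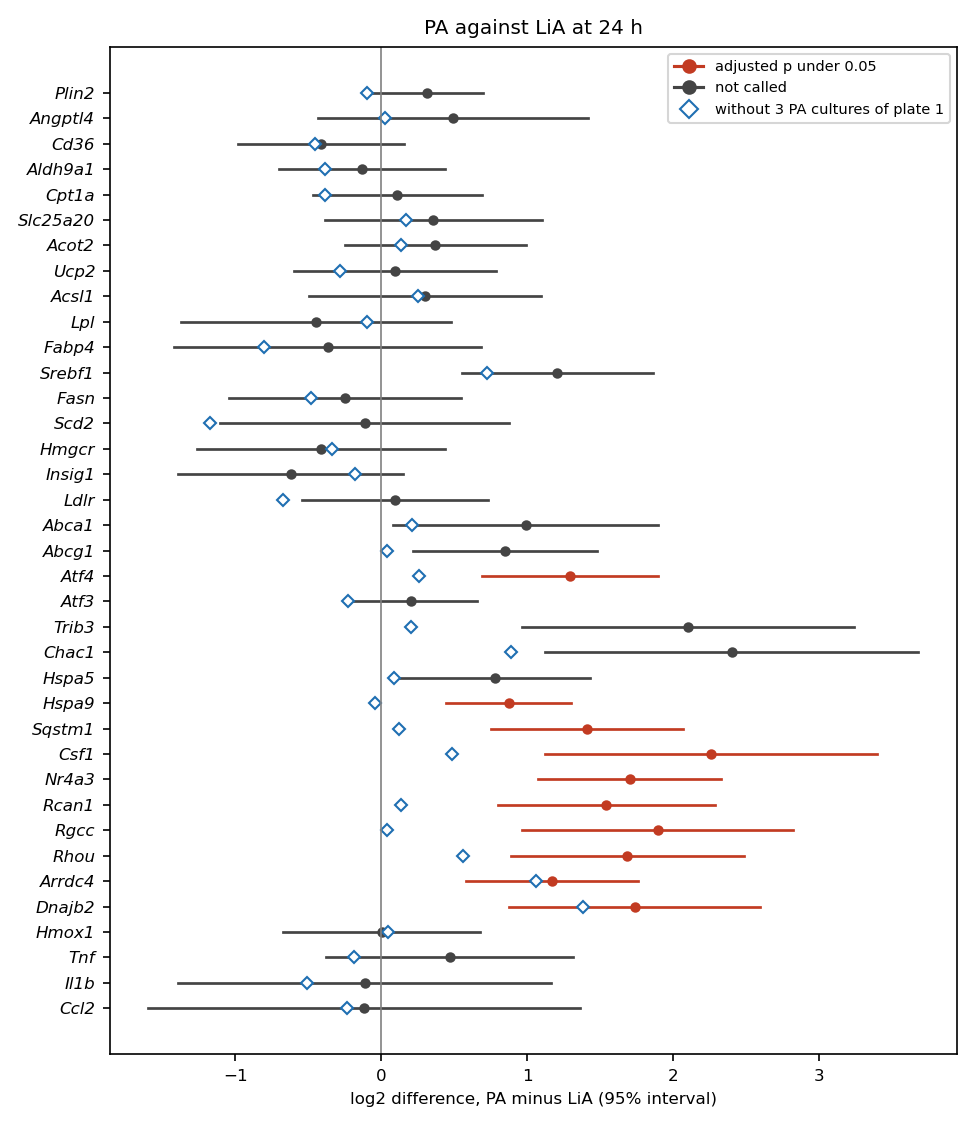
PA minus LiA log2 difference with its 95% interval for lipid, stress and signalling genes, in red for the 10 genes with adjusted p under 0.05, with blue diamonds for the difference once the 3 PA cultures of plate 1 are left out (none for Nr4a3, which then fails the 5 CPM filter). For Arrdc4 the diamond (1.06) stays close to the difference over all cultures (1.17), while for Hspa9 it lies at -0.04 against 0.87.

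Further genes rose with PA against untreated cultures. Vegfa, the vascular growth factor, measured 19.6, 21.2 and 19.1 CPM with PA on plate 1, 7.95 and 4.67 CPM on plate 2 and 3.13 CPM on plate 3, against 0 to 3.21 CPM in the untreated wells of the same pools. Each PA culture was above every untreated well of its own pool. The log2 difference was 2.24 (SE 0.45, limma adjusted p = 0.00291), and 2.64, 1.77 and 1.11 within plates (exact permutation p = 0.001, the smallest possible). Cd300a, an inhibitory receptor for phosphatidylserine, was higher with both fatty acids, at 109 to 177 CPM in PA and 90.1 to 146 CPM in LiA against an untreated median of 69.1 CPM. Its log2 difference was 1.07 for PA (adjusted p = 0.00327) and 0.73 for LiA (adjusted p = 0.0364). Within plates it was 1.10, 0.21 and 0.49 for PA and 0.58, 0.01 and 0.34 for LiA.

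Tmem178, a membrane protein of the ER, measured 30.2, 31.99 and 42.4 CPM with PA on plate 1 and 1.17 to 9.34 CPM with PA elsewhere, with a log2 difference of 2.82 from untreated cultures (limma adjusted p = 1.53e-05). Klf4, a zinc finger transcription factor, measured 22.1, 30.7 and 28.02 CPM on plate 1, 5.72 and 31.5 CPM on plate 2 and 2.35 CPM on plate 3 with PA, and 0 to 9.17 CPM with LiA. Fbxo32, a ubiquitin ligase known as atrogin-1, measured 107, 107 and 92.9 CPM with PA on plate 1 and 18.98 to 37.8 CPM with PA elsewhere. Both rose with PA, Klf4 by 2.10 (limma adjusted p = 0.00291) and Fbxo32 by 1.96 (adjusted p = 0.00271). Within plates 1, 2 and 3 the Fbxo32 difference was 1.85, 0.50 and 1.01 with PA. With LiA it was 0.55, 0.61 and 1.12, and the gene was not called. These 3 genes again had their highest PA levels on plate 1, apart from 1 Klf4 culture on plate 2.

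Of 30 tested inflammatory genes 1 passed with PA (3.33%, beside 0.591% of all genes tested), Il1rn, the interleukin-1 receptor antagonist, at a log2 difference of 1.64 (limma adjusted p = 0.0463) and 2.22, 0.50 and 0.00 on the plates. None passed with LiA, where 0.03 was the difference for Il1rn. Tnf measured 21.4 to 151 CPM in PA and 31.3 to 84.9 CPM in LiA against 26.2 to 409.7 CPM in untreated cultures, with differences of -0.47 (adjusted p = 0.752) and -0.94 (adjusted p = 0.181), and PA minus LiA at 0.47 (interval -0.38 to 1.32). Il1b, with PA minus LiA at -0.11 (interval -1.39 to 1.16, adjusted p = 0.984), was not called either. No gene of the type I interferon, eicosanoid, glycolysis or lipid- and disease-associated microglia lists was called by limma in any of the 3 comparisons. Of 20 sphingolipid genes 1 passed with PA (5%, beside 0.591% of all genes tested), Sphk1, which makes sphingosine-1-phosphate. Its difference was 1.42 over all cultures (limma adjusted p = 0.0416) and 2.74, -0.02 and -0.98 on the plates.

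Fewer transcripts of some microglial genes were found with PA, again mainly on plate 1. Fcrls, a microglial Fc receptor-like gene, measured 75.2, 63.0 and 64.8 CPM with PA on plate 1 against 191 to 362 CPM untreated, and 258, 108 and 281 CPM with PA on the other plates. It fell by 2.03 on the log2 scale (limma adjusted p = 0.0255) and was the 1 of 14 tested homeostatic genes called with PA. Within plates 1, 2 and 3 the Fcrls difference was smaller, at -1.91, -0.41 and -0.72 with PA and -0.23, -0.67 and -0.36 with LiA. Its median was 91.5 CPM in PA, 209 CPM in LiA and 201 CPM in OA, against 524 CPM in all untreated cultures. The list median was -0.51 for PA and -0.32 for LiA. C1qa, a complement component named after its values were seen, measured 354, 362 and 290.5 CPM with PA on plate 1 and 996 to 1264 CPM with PA elsewhere, against 757 to 2139 CPM in untreated cultures, and 619 to 1113 CPM with LiA. Its log2 difference was -1.10 with PA (adjusted p = 0.00193) and -0.74 with LiA (adjusted p = 0.0315). On plates 1, 2 and 3 it was -1.31, 0.04 and 0.41 for PA and -0.29, -0.45 and 0.03 for LiA, and the LiA call was kept in 16 of 35 settings.

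The summed level of the homeostatic markers was 2707 to 5409 CPM in PA and 3218 to 6379 CPM in LiA against 3739 to 9705 CPM in untreated cultures (permutation p = 0.00021 for PA and 0.0044 for LiA), and PA and LiA overlapped (exact permutation p = 0.146). These permutations ignored plates. The mean sum on plates 1, 2 and 3 was 2764, 3850.1 and 5409 CPM in PA, 4209, 3388 and 5780.1 CPM in LiA and 4403, 4154 and 6436 CPM in untreated wells, whose mean over all 40 cultures was 6022 CPM. In bulk RNA, fewer cells of a type and less RNA per cell cannot be told apart. Erythrocyte markers were at 0 CPM in every PA culture for 6 of 6 genes, and among 10 neutrophil, 10 lymphoid and 10 neuronal markers 6 of each were at 0 CPM in all PA cultures. Medians above 5 CPM in PA were found for 2 of 10 monocyte and macrophage markers, 2 of 10 endothelial, 3 of 10 fibroblast, 1 of 10 astrocyte and 4 of 10 oligodendrocyte markers. The summed neutrophil markers were 3.91 to 9.16 CPM in PA and 6.68 to 26.9 CPM in LiA (exact permutation p = 0.0406, unadjusted). The summed oligodendrocyte markers were 67.6 to 83.6 CPM in PA and 42.6 to 85.7 CPM in LiA against 49.5 to 151 CPM in untreated cultures (permutation p = 0.0646 and 0.0105, unadjusted), with LiA means of 80.1, 73.5 and 55.9 CPM on plates 1, 2 and 3 beside 75.5, 81.7 and 73.9 CPM untreated. The part of any of these levels in the gene differences was not tested. No member of the 20 tested proliferation genes was called by limma, and their median was -0.92, 0.76 and -0.40 with PA on plates 1, 2 and 3.

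At 72 h the same compounds were measured in other cultures, and those values are given beside the 24 h ones without comparison. Plin2 measured 3572 ± 397 CPM with PA (SD, n = 7), 4140.5 ± 351 CPM with LiA (n = 8) and 1823 ± 628 CPM untreated (n = 25), with log2 differences of 1.03 (limma adjusted p = 0.00014) and 1.25 (adjusted p = 5.5e-07). Angptl4 measured 23.5 ± 11.2 CPM with PA and 25.8 ± 4.75 CPM with LiA against 7.08 ± 6.76 CPM untreated, with differences of 1.92 (adjusted p = 0.023) and 2.17 (adjusted p = 0.0056). Atf4 measured 143 ± 28.6 CPM with PA, 102 ± 48.4 CPM with LiA and 148 ± 63.3 CPM untreated, and Nr4a3 was at 0 CPM in each PA culture. Hmox1 was lower with LiA at this time, by a log2 difference of -1.10 (adjusted p = 0.017), and at -0.98 with PA it was not called (adjusted p = 0.057).

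In the 72 h fit 128 of 11566 genes changed with PA (1.11%, 45 higher and 83 lower), 36 with LiA (0.311%, 18 in each direction) and 11 between the fatty acids (0.0951%, 1 higher in PA and 10 lower). Plin2 and Angptl4 were among the genes higher with each fatty acid at this time as well. Only 1 of the 2 library pools with PA at 72 h, and 3 of the 4 with LiA, also held untreated cultures of that time.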

How the data were processed

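RNA from single wells was copied with barcoded primers, pooled across samples for T7 amplification, and 3′-end libraries were sequenced. The authors used Salmon 0.7.1 with an index of Ensembl 81 gene models, added up the reads of each gene's isoforms and scaled them by the total of mapped reads, discarding shallow libraries. The submitters' notes name mm8 as a genome build, and no coordinate was taken from the deposited files. The deposited values are CPM, although the study calls them TPM: they sum to 996125 to 999918 per culture and are not divided by transcript length. Whole reads could not be recovered, since only 69.9% to 89.0% of low values per culture lay within 0.1 of a whole multiple of a step, so no count test was run. The estimated depth was 1.08 to 30.6 M reads (median 4.72 M), and it limits precision for genes near 5 CPM. The table also held 363 columns matched to no sample, which were not used.

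Values were taken as log2(CPM + 1), a scale that understates the change of low genes. Genes above 5 CPM in at least 4 cultures were kept (14208 of 45581). All 24 h groups without LPS combinations (39 groups, 374 cultures) shared 1 linear model in limma 3.58.1 (R 4.3.3) with a mean-variance trend and no covariate, and p-values were adjusted by Benjamini-Hochberg over genes and the 3 comparisons together, with calls at adjusted p under 0.05. Comparisons with OA, the 72 h cultures (47 cultures, 11566 genes) and the within-plate terms were fitted and adjusted apart. Well, plate, lot and pool came from the table's header. Exact permutation tests went through every arrangement, and 100000 permutations were drawn with numpy where a group had 10 or more cultures. Python 3.11.15, pandas 2.3.3, numpy 2.4.6, scipy 1.17.1 and matplotlib 3.10.9 were used, and the fit was tested on simulated data.

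The genes named are a fixed panel of 40 genes, for each comparison the called genes that rose most and fell most (10 each) (mean of at least 5 CPM in the higher group), and called members of the gene lists, with others marked in the text. The compounds, panel and lists were chosen with earlier results of these data known. Promoters came from the RefSeq table on GRCm38.p6. Alternatives covered plate, pool and lot terms, other untreated cultures, pseudocounts, filters, scalings, adjustment, a rank test and leaving out cultures, pools or plates.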

Additional observations from a re-analysis of the deposited data

Results flagged for a closer look

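In 153 groups of 6, 8 or 9 cultures tested, 8 held 1 culture far from the others by Dixon's test at the 95% level, where chance gives about 1 in 20. Cd36 measured 1148 CPM in PA culture 1, above 874 to 922 CPM in the other PA cultures. PA culture 6, the only PA culture of plate 3, measured 5.47 CPM of Fabp4, 0 CPM of Scd2 and 348 CPM of Insig1, against 24.1 to 34.6, 15.6 to 41.5 and 80.5 to 116 CPM in the other 5, and the plate cannot be told apart from that culture. In untreated cultures of plate 3 Insig1 measured 334 to 553 CPM. LiA culture 7 measured 0 CPM of Klf4 and 7.05 CPM of Fbxo32, against 2.94 to 9.17 and 27.2 to 43.8 CPM in the other LiA cultures. Among OA cultures, culture 8 measured 68.2 CPM of Aldh9a1 against 79.8 to 90.3 CPM, and culture 5 measured 0.78 CPM of Nr4a3 against 0 to 0.244 CPM.

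The PA difference on plate 1 differed from that on plates 2 and 3, in a limma test of the difference itself, for 28 genes against untreated wells and for 21 genes against LiA. What set plate 1 apart was not tested.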

How the results depend on the processing

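Counts below are genes called for PA, LiA and PA against LiA in that order, where 84, 44 and 10 were reported, and this first set gives only counts that moved by over 1.5 times. A plate term gave 38 and 12 for PA and LiA, a pool term 49 and 11, and a lot term 37 for PA. Keeping only untreated cultures of the same plates gave 9, 3 and 1. A pseudocount of 0.1 gave 44 for PA and 5 for PA against LiA, and one of 5 gave 21 for PA against LiA. Testing every gene above 0 in 4 cultures gave 232, 166 and 105. Quantile normalization gave 136 and 69 for PA and LiA, a minimum log2 difference of 1 gave 55 and 17, adjusting each comparison alone gave 139 for PA and 1 for PA against LiA, and fitting only the untreated, PA, LiA and OA groups gave 1 for PA against LiA. The 1 gene of that last fit was Chac1, so none of the 10 reported genes was called in it. A rank-sum test with Bonferroni adjustment called 2, 7 and 0.

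Leaving out 1 culture at a time gave 7 to 193 for PA, 14 to 61 for LiA and 0 to 27 for PA against LiA. Without PA culture 1 the counts were 7, 17 and 0, without PA culture 2 they were 9, 17 and 0, without PA culture 3 they were 13, 24 and 1, and without PA culture 6 they were 193, 61 and 27. Without LiA culture 7 they were 59, 18 and 2, without LiA culture 8 71, 28 and 7, and without LiA culture 9 59, 14 and 3. In settings chosen after the data were seen, leaving out plate 1 gave 4, 18 and 0, plate 2 116, 53 and 25, and plate 3 535, 261 and 17. Leaving out the 3 PA cultures of plate 1 gave 6, 17 and 2, and the 3 shared pools alone with a pool term gave 6, 7 and 5. In that last fit PA called Plin2, Angptl4, Hilpda, Gas6, Itgam and Adrbk1, and LiA called Plin2, Angptl4, Cd36, Aldh9a1, Ucp2, Igfbp5 and Ccl6.

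Without the 3 PA cultures of plate 1 the PA difference turned to -0.0104 for Atf4, -0.23 for Ppp1r15a, -0.12 for Hspa9 and -0.20 for Sphk1, and PA minus LiA turned to -0.0441 for Hspa9. Without all of plate 1 it was -0.12 for Hspa9 and -0.21 for Sphk1. P-values were adjusted over the 3 comparisons together, so the LiA counts also move when only PA cultures are left out. Without PA culture 1, 1386 genes had a limma p under 0.05 for LiA before adjustment, beside 1388 with all cultures. The cause of the other moved counts was not tested. No paired analysis was possible because the labels give no replicate numbers that pair single wells, and cultures were blocked only by plate, pool or lot, as above. Depth limits genes near 5 CPM, such as Dnajb2 and Nr4a3.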
